A study of Mus musculus with 15 samples.

Results

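The effect of the treatment labelled JU on the mouse brain after arterial occlusion was set against the sum of the effects of the treatments labelled JA and UA, gene by gene. For each gene the departure from additivity was the log2 level in JU, less those in JA and UA, plus that in vehicle. A value of 0 means that JU differed from vehicle by as much as JA and UA did together. A positive departure is called above additivity here and a negative one below additivity. All genes with at least 10 counts in 3 or more of the 12 libraries were members, which took in 15109 of the 18931 genes in the table. Of these, 13668 reached 10 counts in all 12 libraries, 151 did so in exactly 3 and just passed, and 248 did so in exactly 2 and were left out.

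The 12 libraries were brain messenger RNA of outbred Kunming mice after blockage of the middle cerebral artery (MCAO). They fell into 4 groups of 3 libraries, namely occlusion with JU, with JA, with UA and with vehicle. A group of 3 sham-operated libraries, without occlusion, entered only an alternative fit. The labels do not spell out the treatments or give dose, time, brain region or hemisphere. Jasminoidin and ursodeoxycholic acid are named together in the study's title, and JU is read as the combination, although no label says so. Nothing in the labels says that a group's libraries are from separate animals, so p-values reflect only the spread among these samples, and that may be technical. Brain identity was plain in every library: the 14 pan-neuronal markers together held 4993 to 13560 CPM (counts brought to one common library size, with TMM factors) and the 14 homeostatic astrocyte markers 7436 to 9471.

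Jasminoidin, also called geniposide, is an iridoid glycoside of gardenia fruit, and ursodeoxycholic acid is a bile acid used in cholestatic liver disease. After an artery to the brain is blocked, neurons die or fall silent in the affected tissue. Microglia, the resident macrophages of the brain, then take up debris and astrocytes become reactive, while dividing cells and newly laid matrix mark the border of the injury. A mixture of tissue from inside and outside such a border therefore carries injury transcripts in varying amounts. In bulk RNA, fewer cells of a type and less RNA per cell cannot be told apart.

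Of the 15109 genes tested, 1094 departed from additivity in edgeR's quasi-likelihood test at an adjusted p under 0.05, which is 7.24% of them. JU lay above additivity for 195 genes (1.29%) and below it for 899 (5.95%). The departures that passed had a median size of 0.75 (log2). For 1080 of the 1094 genes, the difference of JU from vehicle was smaller in size than those of both JA and UA, as it was for 10049 of all 15109. The 195 genes above additivity had median differences from vehicle of -0.01 in JU, -0.34 in JA and -0.38 in UA. The 899 genes below additivity had medians of 0.05 in JU, 0.38 in JA and 0.42 in UA. The genes were chosen by a contrast of these same values, so this form is a description of them only. The called genes differed in GC content: the median transcript GC content was 55.9% above additivity and 41.7% below, against 49.9% over all genes tested. With a correction for GC content in each library, 0 of 14995 genes passed in edgeR, with 3514 at an unadjusted p under 0.05. Every library moved the count by over 1.5 times when it was left out. The count was 2015 without JU replicate 1, 4083 without JU replicate 2 and 676 without JU replicate 3. It was 566, 410 and 271 without JA replicates 1, 2 and 3, and 414, 340 and 447 without UA replicates 1, 2 and 3. It was 513, 221 and 571 without vehicle replicates 1, 2 and 3.

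**Figure D1:**
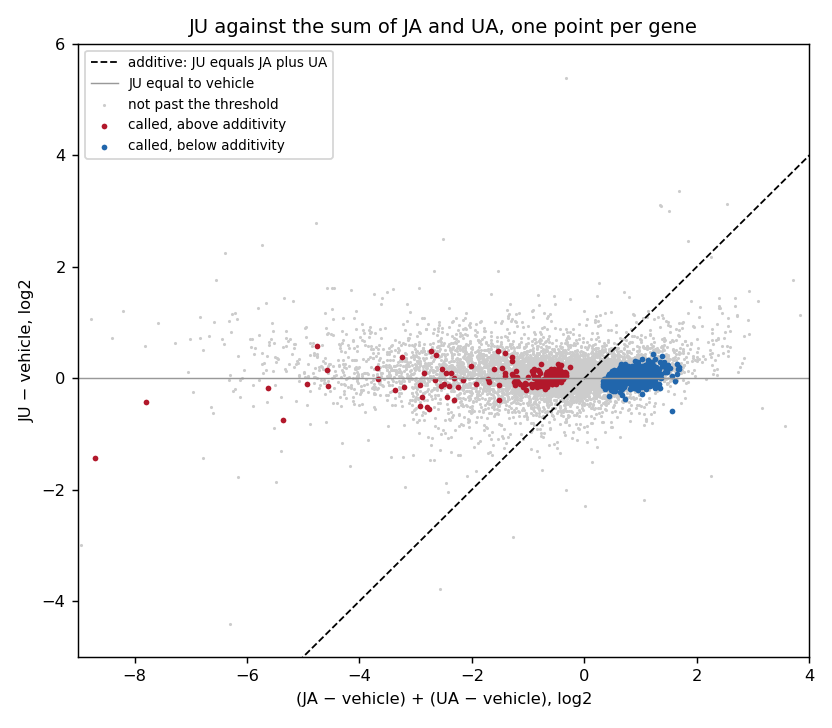
Each point is a gene, with the sum of the differences of JA and UA from vehicle on the x axis and the difference of JU from vehicle on the y axis, both log2; 13 genes lie outside the axes. The called genes, 195 above additivity in red and 899 below in blue, lie near the level line where JU equals vehicle and away from the dashed line of additivity.

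GC content followed the same split of the groups as the departure, so the base composition of some called genes is shown first. Cdk18, a cyclin-dependent kinase of the PCTAIRE family at chr1:132112237-132139684 (GRCm38), and Adgrg1, an adhesion receptor also known as GPR56 at chr8:94974751-95014217, are the 2 genes above additivity with the smallest maximum p over the 12 fits that left out 1 library. Ube3a, the ubiquitin ligase lost in Angelman syndrome at chr7:59228750-59311536, and Ipo7, a nuclear import receptor at chr7:110018274-110056609, are the same below additivity. The 120 bases at the middle of each coding sequence in the GENCODE M21 annotation of GRCm38 are printed 5′ to 3′ in the direction of transcription, with G and C in capitals and A and T in lower case. They show the base composition of these genes only. Some other named genes differed, with a transcript GC content of 49.8% in Ifngr2, above additivity, and 50.8% in Zxdb, below it.
Cdk18: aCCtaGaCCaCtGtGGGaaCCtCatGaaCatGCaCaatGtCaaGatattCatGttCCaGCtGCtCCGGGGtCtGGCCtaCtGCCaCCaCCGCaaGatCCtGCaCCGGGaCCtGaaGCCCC
Adgrg1: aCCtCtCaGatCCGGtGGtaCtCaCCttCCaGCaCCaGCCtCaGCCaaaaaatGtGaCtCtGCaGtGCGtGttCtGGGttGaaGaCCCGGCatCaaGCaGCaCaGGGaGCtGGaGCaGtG
Ube3a: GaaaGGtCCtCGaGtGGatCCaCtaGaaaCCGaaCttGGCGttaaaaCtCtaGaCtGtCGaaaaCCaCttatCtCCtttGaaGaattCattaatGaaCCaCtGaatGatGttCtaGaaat
Ipo7: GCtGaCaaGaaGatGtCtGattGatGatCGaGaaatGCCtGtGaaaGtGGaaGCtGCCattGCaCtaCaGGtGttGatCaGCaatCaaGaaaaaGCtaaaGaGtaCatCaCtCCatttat
Of these 120 bases, 68 are G or C in Cdk18 and in Adgrg1, against 47 in Ube3a and 49 in Ipo7. Over the whole coding sequences the G and C content is 57.06% for Cdk18, 57.45% for Adgrg1, 38.35% for Ube3a and 40.98% for Ipo7.

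Over all genes the departure climbed with GC content. Genes were split into 10 equal bins of transcript GC content. In the bin of lowest GC content the median departure was -0.54, and 414 of 1500 genes were called below additivity and 0 above. In bins 9 and 10, the highest, it was 0.31 and 0.24, and 51 genes were called above additivity in each and 0 below. The differences of JA and UA from vehicle ran the other way, with medians of 0.28 and 0.31 in the lowest bin, and -0.11 and -0.14 in the highest. JU differed from vehicle by medians of 0.02 to 0.05 in all 10 bins. The trend can be read in each library as the median deviation of the highest bin minus that of the lowest. It was 0.0559, 0.224 and 0.237 in JU, -0.173, -0.0607 and -0.234 in JA, -0.247, -0.225 and -0.167 in UA, and 0.218, 0.201 and 0.204 in vehicle. All 6 JU and vehicle libraries were thus positive and all 6 JA and UA libraries negative. The labels give no batch of library preparation, and the GC trend and the treatment groups cannot be told apart.

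**Figure D2:**
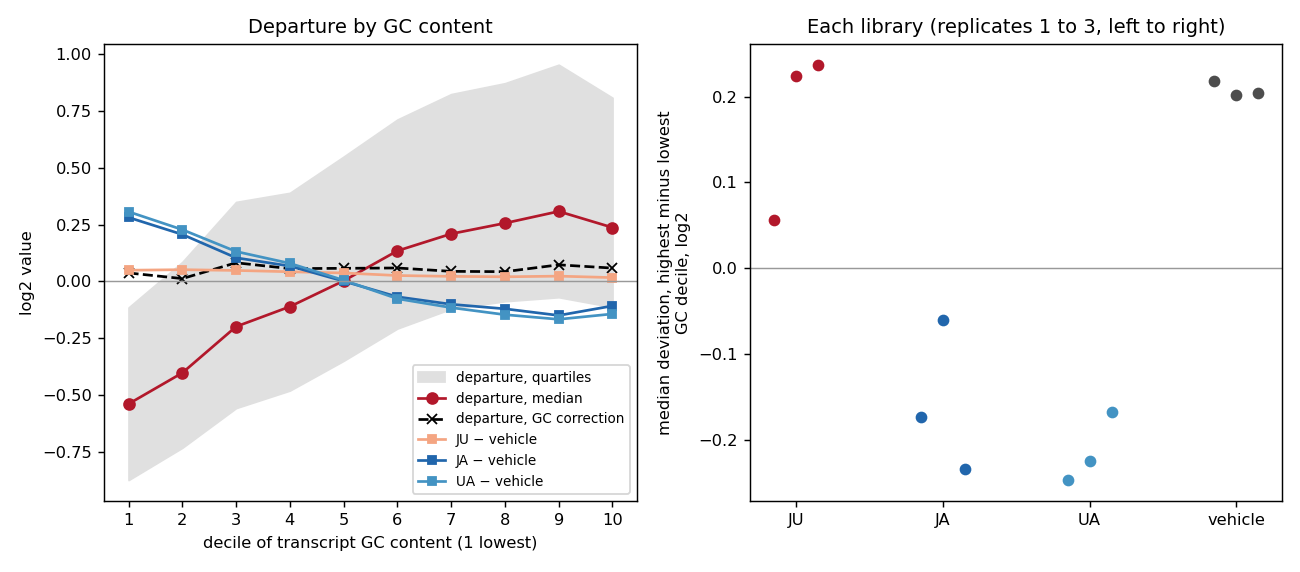
The left panel plots the median departure, with quartiles in gray, and the median differences of JU, JA and UA from vehicle (log2) over 10 bins of transcript GC content; the dashed line is the departure after GC correction, which stays between 0.01 and 0.08. The right panel gives the median deviation of the highest minus the lowest bin (log2) in each library, positive in the 6 JU and vehicle libraries and negative in the 6 JA and UA libraries.

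With the correction, 1041 of the 1089 called genes with a GC value kept the direction of their departure, and for 549 the unadjusted edgeR p was under 0.05. Over all 14995 genes tested with a GC value, 12735 kept their direction and 3514 had such a p. The median departure of the genes called above additivity was 0.52 with the correction and 0.68 without it. For those below it was -0.30 with the correction and -0.75 without it. Adjusted p-values then ran no lower than 0.192 among the genes named here when all 12 libraries were used.

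The steadiest departures were taken as those with the smallest maximum p over the 12 fits that left out 1 library. Above additivity they were, besides Cdk18 and Adgrg1, Anks1, an ankyrin-repeat adaptor, Ifngr2, a chain of the interferon gamma receptor, and Nmral1, an NADPH sensor. Cdk18 had 50.5, 51.7 and 50.3 CPM in JU, 41.1, 40.6 and 42.8 CPM in JA, 42.7, 42.9 and 41.5 CPM in UA and 52.1, 52.4 and 52.6 CPM in vehicle. All JU and vehicle libraries were above all JA and UA libraries, and the departure was 0.60 ± 0.08 (SE) with an edgeR adjusted p of 0.00997. Ifngr2, at chr16:91547072-91565623, had 80.6, 73.8 and 77.1 CPM in JU, 62.5, 64.9 and 61.6 CPM in JA, 64.5, 64.9 and 68.9 CPM in UA and 77.9, 82.6 and 74.2 CPM in vehicle. JU libraries overlapped vehicle, both sat above JA and UA, and the departure of 0.54 ± 0.10 (SE) was almost the same after GC correction, at 0.53 (edgeR adjusted p = 0.0148 before it). Anks1 departed by 0.85, Adgrg1 by 0.73 and Nmral1 by 0.83. After GC correction these became 0.63, 0.50 and 0.76, and that of Cdk18 became 0.36.

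Below additivity the steadiest included Ube3a, Ipo7, Mtch2 and Ndufb1, of which Mtch2 and Ndufb1 encode mitochondrial proteins. Mtch2 inserts proteins into the outer membrane and Ndufb1 is a subunit of complex I. Ipo7 had 118, 129 and 128 CPM in JU, 170.3, 169.9 and 184 CPM in JA, 174, 182 and 176 CPM in UA and 121, 108 and 125 CPM in vehicle. JU and vehicle libraries overlapped and none reached the lowest JA or UA library, with a departure of -1.07 ± 0.12 (SE) and an edgeR adjusted p of 0.00989. Ube3a had 55.4, 57.2 and 56.1 CPM in JU, 70.9, 71.97 and 78.2 CPM in JA, 74.1, 83.2 and 76.5 CPM in UA and 53.7, 50.7 and 53.6 CPM in vehicle. JU lay just above vehicle and both lay below every JA and UA library, with a departure of -0.96 ± 0.10 (SE) (edgeR adjusted p = 0.00989). After GC correction the departure was -0.53 for Ipo7 and -0.27 for Ube3a. Ndufb1 had 21.3, 28.2 and 24.5 CPM in JU, 32.7, 36.6 and 38.3 CPM in JA, 46.7, 43.3 and 37.8 CPM in UA and 23.4, 20.7 and 21.8 CPM in vehicle, again with JU among or just above vehicle and below JA and UA. Its departure was -1.50 ± 0.17 (SE); it was matched to no gene in the annotation, so it has no GC value. Mtch2 departed by -0.82, and by -0.36 after GC correction. In all, 853 of the 1094 called genes had their 6 JU and vehicle libraries on one side of their 6 JA and UA libraries. Over all genes tested this was so for 305 with JU and vehicle above (2.02%) and 1039 with JU and vehicle below (6.88%), and as it is nearly the same quantity as the departure, nothing is read from it.

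**Figure D3:**
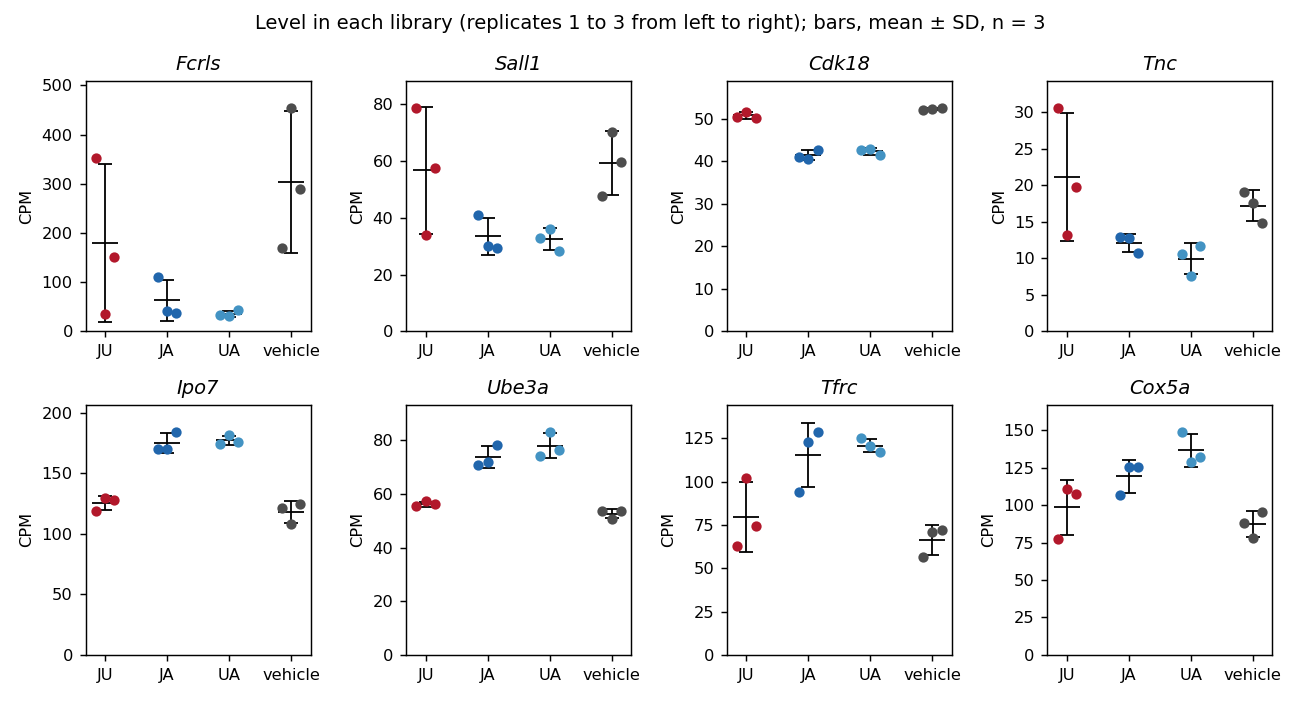
The level (CPM) of 8 genes in each library is plotted by group, replicates 1 to 3 from left to right, with bars for the mean ± SD (n = 3). In Cdk18, Ipo7 and Ube3a the JU libraries lie with vehicle and apart from JA and UA, while in Fcrls, Sall1 and Tnc JU replicate 2 lies among or near the JA and UA libraries.

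Fcrls, Kif2c, Il21r, Gmfg and Traf1 were among the 10 largest departures called above additivity in genes that averaged at least 1 CPM. Fcrls, a receptor specific to microglia at chr3:87250758-87263738, had 353, 35.8 and 151 CPM in JU, 111, 40.3 and 38.1 CPM in JA, 33.01, 30.7 and 42.5 CPM in UA and 168, 454 and 288 CPM in vehicle. JU replicate 2 lay among the JA and UA libraries while JU replicates 1 and 3 lay above them all, and the departure was 4.61 ± 1.04 (SE) (edgeR adjusted p = 0.0302). Without JU replicate 1 it was 3.67 (adjusted p = 0.0369), and after GC correction 4.69. Kif2c, a kinesin of the mitotic spindle, departed by 4.73, Il21r, the interleukin 21 receptor, by 4.41, Gmfg, an actin regulator of blood-derived cells, by 3.16, and Traf1, an adaptor of tumor necrosis factor receptors, by 2.94. Without JU replicate 1 these were 3.05, 2.95, 2.26 and 2.57. In Kif2c, Il21r and Gmfg JU replicate 2 lay within the range of JA and UA, at 1.15, 1.70 and 2.53 CPM. The calls of Kif2c, Il21r, Gmfg and Traf1 were lost in 9, 10, 10 and 5 of the 12 fits that left out 1 library. Traf1 had 4.17, 1.59 and 2.74 CPM in JU, 1.21, 0.931 and 0.831 CPM in JA, 1.28, 0.941 and 0.722 CPM in UA and 2.35, 3.75 and 1.88 CPM in vehicle, so that each JU library exceeded each JA and UA library.

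Larger still among the called genes were the departures of Gdpd3, Col10a1 and Ang. Gdpd3, a phosphodiesterase of lysophospholipids, had only 4 counts in the 3 UA libraries together, and its levels were 1.27, 4.73 and 0.498 CPM in JU, 0.806, 0.362 and 0.332 CPM in JA, 0, 0.198 and 0 CPM in UA and 6.96, 1.46 and 0.337 CPM in vehicle. JU and vehicle each spread widely, and its fitted departure of 7.37 depends on the prior count of the fit. Col10a1, the type X collagen, had 14.4, 0.275 and 0.199 CPM in JU, 0.655, 0.103 and 0.554 CPM in JA, 0.892, 0.941 and 1.08 CPM in UA and 10.3, 16.1 and 13.8 CPM in vehicle. Only JU replicate 1 reached the vehicle level, JU replicates 2 and 3 lay with JA, and the departure was 7.26 with that library and 2.91 without it. Ang, a secreted ribonuclease with close paralogs, so that read assignment is uncertain, departed by 5.44 with all libraries and 4.0 without JU replicate 1. Fmr1nb, with a mean level under 1 CPM, had the largest departure called, 8.22, and is not described further. Ccdc170 and Dnajb13, genes of ciliated cells, departed by 3.05 and 3.05.

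The 10 largest departures called below additivity in genes that averaged at least 1 CPM included the following. Ppp3r1, the regulatory subunit of calcineurin at chr11:17159263-17200375, had 383, 923 and 835 CPM in JU, 1077, 1170 and 1263 CPM in JA, 1207, 1212 and 1189 CPM in UA and 738, 588 and 744 CPM in vehicle. JU replicate 1 was lowest of all and JU replicates 2 and 3 stood between vehicle and the JA and UA libraries, with a departure of -1.52 ± 0.38 (SE) (edgeR adjusted p = 0.0424) and -1.21 without JU replicate 1. Slitrk4, a synaptic adhesion protein, departed by -1.58, Cdh9, a cadherin of neuronal subsets, by -1.44, Galnt13, an O-glycosylation enzyme, by -1.45, and Hs3st5, a heparan sulfate sulfotransferase, by -1.52. The zinc finger genes Zfp804b, Zfp711 and Zxdb departed by -2.15, -1.52 and -1.49. Akr1e1, an aldo-keto reductase, had 8.18, 8.90 and 10.8 CPM in JU, 17.3, 14.4 and 16.2 CPM in JA, 24.3, 16 and 13.2 CPM in UA and 8.80, 9.94 and 10.3 CPM in vehicle, with JU at the vehicle level and every JA and UA library above it, and departed by -1.66 ± 0.30 (SE). After GC correction Zxdb stood at -1.56, Hs3st5 at -1.45, Akr1e1 at -1.27 and Slitrk4 at -0.81.

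Of the 48 named genes that were called, 11 passed in all 12 fits that left out 1 library. Among them were Cdk18, Adgrg1, Anks1 and Ifngr2 above additivity and Ube3a, Ipo7, Mtch2, Ndufb1, Clock and Hspd1 below. The other 37 each lost the call in at least 1 such fit, and 27 of them in over 6. Without JU replicates 1, 2 and 3 the number of calls lost was 1, 0 and 16, the first being Tmem119. It was 22, 28 and 34 without JA replicates 1, 2 and 3, 29 without each UA replicate, and 26, 35 and 22 without vehicle replicates 1, 2 and 3. The call of Fcrls ended without any UA library, JA replicate 2 or 3, or vehicle replicate 2 or 3. That of Sall1 ended without any UA or vehicle library, JA replicate 2 or 3, or JU replicate 3, and that of Tnc without any JA, UA or vehicle library or JU replicate 3.

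Groups of genes were described by counts and medians over 42 lists holding 579 genes tested, 29 of them with their members. Over all genes the median departure was 0.02 and 51.2% were above 0. At an unadjusted p under 0.05, 2970 genes lay above additivity (19.7%) and 2474 below (16.4%). JU replicate 1 stood far from the other libraries on the first principal component, at -119.7 against -74.3 to 52.7, and most lists are given with and without it.

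The list of reactive microglia and macrophages was positive for all 28 genes tested, with a median departure of 4.68, but 0 were called in edgeR and 24 passed an unadjusted p of 0.05. Their summed level was 60540, 3129 and 6505 CPM in JU, 11480, 3087 and 2691 in JA, 3236, 5748 and 3415 in UA, and 13660, 31350 and 14360 in vehicle. JU replicate 1 held the highest sum of all and JU replicates 2 and 3 lay within the range of JA and below every vehicle library. Ctsd, a lysosomal protease, had 16210, 552 and 2232 CPM in JU, 2744, 551 and 473 CPM in JA, 564, 1805 and 645 CPM in UA and 3993, 10280 and 5263 CPM in vehicle. Its departure of 5.03 did not pass (edgeR adjusted p = 0.0743) and was 2.84 without JU replicate 1. Ctsz, another lysosomal protease, stood at 4.72, and Csf1, the growth factor of microglia, at 2.51. The median of the list was 1.47 without JU replicate 1, and 4.17 without JU and JA replicate 1.

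Of 12 genes of homeostatic microglia tested, 3 were called above additivity, where 1.29% of all genes were. They were Fcrls, Sall1, a transcription factor that keeps microglial identity, and Tmem119, a surface protein of microglia. All 12 departures were positive, with a median of 2.08. Without JU replicate 1 the median was 1.69 and 2 were called above, against 3.42% of all genes. Without JU and JA replicate 1 the median was 2.16. Sall1 had 78.8, 33.9 and 57.6 CPM in JU, 40.9, 30.04 and 29.5 CPM in JA, 32.96, 36.2 and 28.3 CPM in UA and 47.6, 70.3 and 59.8 CPM in vehicle. JU replicate 2 was within the range of JA and UA and the other JU libraries were above it, with a departure of 1.63 ± 0.39 (SE) (edgeR adjusted p = 0.0363). Tmem119 had 126, 36.9 and 57.9 CPM in JU, 51.96, 27.97 and 26.8 CPM in JA, 31.3, 35.4 and 27.9 CPM in UA and 49.2, 105 and 84.3 CPM in vehicle, a departure of 2.38 ± 0.63 (SE) and an edgeR adjusted p of 0.0495, which was 0.0501 without JU replicate 1. The summed level of the list was 3471, 661 and 1573 CPM in JU, 1355, 642 and 588 in JA, 739, 1065 and 705 in UA, and 1482, 2994 and 2168 in vehicle. Homeostatic and reactive microglial genes had their highest sums in the same libraries, JU replicate 1 and vehicle replicate 2, and whether the number of microglia accounts for the departures was not tested.

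Other injury lists lay on the same side. The medians were 4.20 for 13 complement genes, 3.16 for 12 chemokine genes, 2.34 for 14 genes of interleukin 1 and tumor necrosis factor cytokines, 2.20 for 13 antigen presentation genes and 1.44 for 15 type I interferon response genes, with 0 calls in each. At an unadjusted p under 0.05 they held 12, 5, 8, 6 and 3 genes above additivity, where 19.7% of all genes tested lay above. The interferon list was near that share. The medians without JU replicate 1 were 1.81, 1.35, 1.04, 0.66 and 0.27. Without JU and JA replicate 1 they were 2.87, 3.05, 1.75, 1.09 and 0.98. In the complement, antigen presentation and interferon lists JU replicate 1 held the highest sum and JU replicates 2 and 3 lay below every vehicle library. In the cytokine list JU replicate 3, at 201.8 CPM, exceeded vehicle replicate 1, at 193.5. The chemokine sum was lowest in JU replicate 1, at 758 CPM. C1qb, a chain of complement C1q, stood at 4.83, Serping1, the C1 inhibitor, at 4.20, Ccl3, a chemokine, at 6.12 and Tgfb1, a cytokine of tissue repair, at 3.87. Il18, a cytokine of the interleukin 1 family, stood on the other side at -0.99. None of these 5 passed, with edgeR adjusted p-values of 0.0634 to 0.0859. Of 12 border and infiltrating macrophage genes 11 were positive, with a median of 2.81 and 0.60 without JU replicate 1. Their median was 1.34 without JU and JA replicate 1. White blood cells were hardly measured: 6 of 10 neutrophil and 3 of 12 lymphocyte markers were tested, with summed levels of 6.48 to 72.9 and 8.91 to 16.7 CPM in JU, 7.65 to 29.5 and 7.05 to 16.9 in JA, 8.81 to 28.8 and 12.02 to 14.1 in UA, and 22.8 to 54.6 and 7.26 to 14.9 in vehicle.

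Matrix, scar and dividing-cell genes were all positive. The 20 genes of collagens and matrix had a median of 3.85, the 20 of reactive astrocytes 3.35 and the 18 of the cell cycle 3.46. Without JU replicate 1 these were 1.53, 1.18 and 1.52. Without JU and JA replicate 1 they were 2.02, 1.92 and 2.46. Summed levels of collagens and matrix were 7638, 660 and 1071 CPM in JU, 587 to 1375 in JA and 1619 to 4040 in vehicle. JU replicate 1 was highest and JU replicates 2 and 3 lay below every vehicle library, as in the cell cycle list. In reactive astrocytes JU replicate 1 was also highest and JU replicate 2 below every vehicle library. There JU replicate 3, at 2275, exceeded vehicle replicates 1 and 3, at 1540 and 1946. Tnc, or tenascin C, was the only call in these lists (edgeR adjusted p = 0.0386), where 1.29% of all genes tested were called above. At an unadjusted p under 0.05 there were 20, 13 and 17 above additivity, against 19.7% of all genes. Tnc had 30.6, 13.2 and 19.7 CPM in JU, 12.9, 12.8 and 10.7 CPM in JA, 10.5, 7.63 and 11.7 CPM in UA and 19.1, 17.6 and 14.9 CPM in vehicle, each JU library above each JA and UA library, and departed by 1.59 ± 0.39 (SE) and by 1.23 without JU replicate 1. Vim, an intermediate filament of reactive astrocytes, Mki67, a marker of division, and Col4a1, a basement membrane collagen, stood at 4.97, 4.81 and 3.93 and did not pass. In the 10 genes of pericytes and smooth muscle the median was 1.21, and 0.70 without JU replicate 1, with 9 positive and 0 called.

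Of 14 genes of ependyma and motile cilia 13 were positive, with a median of 1.40 and 1.03 without JU replicate 1. Above additivity 1 was called, where 1.29% of all genes tested were. Cfap126, a protein of the ciliary axoneme, had 8.34, 3.41 and 5.53 CPM in JU, 2.22, 1.76 and 2.49 CPM in JA, 3.90, 1.78 and 1.70 CPM in UA and 3.22, 8.38 and 4.62 CPM in vehicle. JU replicate 2 fell below the highest UA library and the other JU libraries above all JA and UA libraries, and the departure was 2.55 ± 0.66 (SE) (edgeR adjusted p = 0.0463). Foxj1, the master regulator of motile cilia, stood at 2.52 (adjusted p = 0.0576) and passed without JU replicate 1, at 1.70 (adjusted p = 0.0450). In the 14 genes of primary cilium and planar polarity the median was 0.19 with and without JU replicate 1. Of these 14, 2 were called above additivity, against 1.29% of all genes. Celsr1, a planar polarity cadherin, had 19.5, 12.1 and 13.7 CPM in JU, 11.2, 10.7 and 9.92 CPM in JA, 8.92, 6.79 and 8.36 CPM in UA and 13.7, 16.3 and 13.2 CPM in vehicle and departed by 1.36 ± 0.26 (SE), with each JU library above each JA and UA library. Evc2, a ciliary protein of hedgehog signaling, had 22.5, 21.6 and 15.3 CPM in JU, 18.3, 20.99 and 15.6 CPM in JA, 6.41, 8.47 and 8.05 CPM in UA and 24.9, 13.5 and 15.9 CPM in vehicle. Here only UA stood apart from the other groups, with differences from vehicle of 0.13 ± 0.24 in JU, 0.02 ± 0.24 in JA and -1.24 ± 0.24 in UA (SE), and the departure was 1.36 ± 0.34 (SE). Ift88, a carrier in cilia, stood at -0.48 (adjusted p = 0.0588) and at 0.01 after GC correction.

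Most neuronal lists lay on the negative side, but those of thalamic and hippocampal neurons did not. Of 12 thalamic genes 7 were positive, with a median of 0.37, and of 11 hippocampal genes 6, with a median of 0.01, and 0 were called in either. All 14 pan-neuronal, 16 striatal and 17 glutamate and GABA receptor genes had negative departures, with medians of -0.56, -1.12 and -0.89, and 0 were called. At an unadjusted p under 0.05 there were 2, 2 and 10 below additivity, where 16.4% of all genes tested lay below. The pan-neuronal and striatal lists held no more than that share. Leaving out JU replicate 1 gave medians of -0.21, -0.71 and -0.58, with 1, 0 and 5 called below, against 9.92% of all genes. Map2, a dendritic protein, had 560, 1286 and 1108 CPM in JU, 1283, 1333 and 1309 CPM in JA, 1482, 1334 and 1275 CPM in UA and 1084, 809 and 966 CPM in vehicle, lowest in JU replicate 1, with JU replicate 2 within the range of JA and UA and JU replicate 3 below it. Its departure of -0.93 did not pass with all libraries and passed without JU replicate 1, at -0.64 (edgeR adjusted p = 0.104 with it and 0.0368 without). Gabrb2, a GABA receptor subunit, and Gria2, an AMPA receptor subunit, stood at -1.35 and -1.08. Summed pan-neuronal levels were 4993, 13090 and 11530 CPM in JU, 10760, 12530 and 13560 in JA, 13010, 12350 and 12870 in UA, and 10670, 7790 and 10840 in vehicle, lowest in the 2 libraries with the highest microglial sums. The share of neuronal tissue in each library was not measured otherwise, and its part in these values was not tested.

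Genes switched on by neuronal activity were below additivity in 16 of 18, with a median of -1.11 and 0 called; Egr2, an activity-induced transcription factor, had 4.52, 9.62 and 6.33 CPM in JU, 1.96, 22.4 and 19.2 CPM in JA, 13.9, 11.1 and 16.6 CPM in UA and 2.87, 3.70 and 9.37 CPM in vehicle. JA replicate 1 was lowest of all and the other JA libraries highest. Of 12 interneuron and neuropeptide genes 11 were negative, with a median of -0.75, and of 12 cortical genes 9, with a median of -0.54. Without JU replicate 1 these medians were -0.33 and -0.29, and that of the activity genes was -0.86. The 21 genes of cholesterol synthesis and uptake had 20 negative departures, a median of -0.86, which was -0.54 without JU replicate 1, and 0 calls, with Sc5d and Hsd17b7, both enzymes of cholesterol synthesis, at -1.12 and -0.71.

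The lists of oxidative phosphorylation and heat shock genes held 3 and 4 calls below additivity among 20 and 14 genes, where 5.95% of all genes tested were called below. All 20 nuclear genes of oxidative phosphorylation were negative, with a median of -0.33, and -0.18 without JU replicate 1. Ndufs1, the core iron-sulfur subunit of complex I, had 112, 141 and 143 CPM in JU, 153, 183 and 191 CPM in JA, 186, 177 and 185 CPM in UA and 137, 125 and 137 CPM in vehicle. JU and vehicle lay below every JA and UA library, with a departure of -0.87 ± 0.16 (SE) (edgeR adjusted p = 0.0179). Atp5c1, the gamma subunit of ATP synthase, departed by -0.58 and Cox5a, a subunit of cytochrome oxidase, by -0.92. After GC correction the 3 stood at -0.59, -0.62 and -0.44. Of 14 heat shock genes, 10 were negative, the median was -0.47 with all libraries and -0.44 without JU replicate 1, and the 4 called were Hspd1, the mitochondrial chaperonin, Hspa4, a nucleotide exchange factor of the HSP70 family, and the cochaperones Dnaja1 and Chordc1. Hspd1 had 132, 149 and 138 CPM in JU, 164, 169.8 and 174 CPM in JA, 169, 173 and 170.4 CPM in UA and 137, 122 and 137 CPM in vehicle and departed by -0.65 ± 0.11 (SE), with all JU and vehicle libraries below all JA and UA libraries. Chordc1, Dnaja1 and Hspa4 departed by -1.24, -1.03 and -0.70, and after GC correction Hspd1, Chordc1 and Dnaja1 stood at -0.47, -0.50 and -0.53.

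Bile acid genes bear on a study of a bile acid. Of 16 genes of bile acid receptors, transport and metabolism 10 were tested, 6 with positive and 4 with negative departures. Below additivity 2 were called, where 5.95% of all genes tested were. The median was 0.69, and 0.24 without JU replicate 1, when 1 was also called above, against 3.42% of all genes. Slco1a4, a transporter of organic anions and bile acids at the blood-brain barrier, had 36.3, 41.6 and 40.3 CPM in JU, 55.6, 50.1 and 51.9 CPM in JA, 49.5, 34.1 and 52.1 CPM in UA and 33.4, 30.4 and 35.9 CPM in vehicle. JU lay above vehicle and below JA, UA replicate 2 fell among the JU and vehicle libraries, and the departure was -0.86 ± 0.20 (SE) (edgeR adjusted p = 0.0361). Cyp7b1, the oxysterol hydroxylase of the alternative bile acid pathway, had 12.2, 13.2 and 15.3 CPM in JU, 18.6, 15.1 and 17.5 CPM in JA, 21.3, 18.8 and 17.9 CPM in UA and 14.6, 15.2 and 12.6 CPM in vehicle. JU replicate 3 and vehicle replicate 2 just exceeded JA replicate 2, the other JU and vehicle libraries were below all JA and UA libraries, and the departure was -0.78 ± 0.19 (SE) (edgeR adjusted p = 0.0352). After GC correction these stood at -0.32 and -0.35. Vdr, the vitamin D receptor, which also binds lithocholic acid, stood at 3.21 (adjusted p = 0.0610) at levels of 0.297 to 4.63 CPM.

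The lists of endothelium, clock, hypoxia and myelin genes had medians of 0.40, -0.10, -0.09 and 0.07. Without JU replicate 1 these were 0.18, -0.01, 0.02 and -0.04. Of their 14, 14, 16 and 14 genes, 2, 2, 1 and 1 were called below additivity, where 5.95% of all genes tested were. The hypoxia and myelin lists were near that share. In endothelium 10 of 14 genes were positive. At an unadjusted p under 0.05, 5 lay above additivity, where 19.7% of all genes tested did. Pecam1, an adhesion protein of endothelial junctions, stood at 1.44 and Cdh5, the vascular cadherin, at 2.05, neither called. The 2 endothelial calls went the other way, in Slco1a4 and Tfrc, the transferrin receptor that brings iron into the brain, at chr16:32608920-32632794. Tfrc had 62.7, 102 and 74.3 CPM in JU, 94.3, 123 and 129 CPM in JA, 125, 121 and 117 CPM in UA and 56.5, 70.8 and 72.3 CPM in vehicle. JU replicate 2 reached the JA and UA range and the other JU libraries lay within or near vehicle, with a departure of -1.39 ± 0.26 (SE) (edgeR adjusted p = 0.0165) that was -0.83 after GC correction. Among clock genes Clock, an activator of the circadian loop, departed by -0.85 ± 0.14 (SE) and Nr1d2, a repressor of it, by -0.76 ± 0.14 (SE). Nr1d2 had 78.7, 100.2 and 93.3 CPM in JU, 133, 126 and 141 CPM in JA, 112, 105 and 119 CPM in UA and 96.96, 95.4 and 100.2 CPM in vehicle, with JA above UA and both above JU and vehicle. Bnip3, a hypoxia-induced mitophagy receptor, departed by -0.84 and Ermn, a cytoskeletal protein of myelinating cells, by -0.82. After GC correction Clock, Nr1d2, Bnip3 and Ermn stood at -0.33, -0.29, -0.36 and -0.18.

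**Figure D4:**
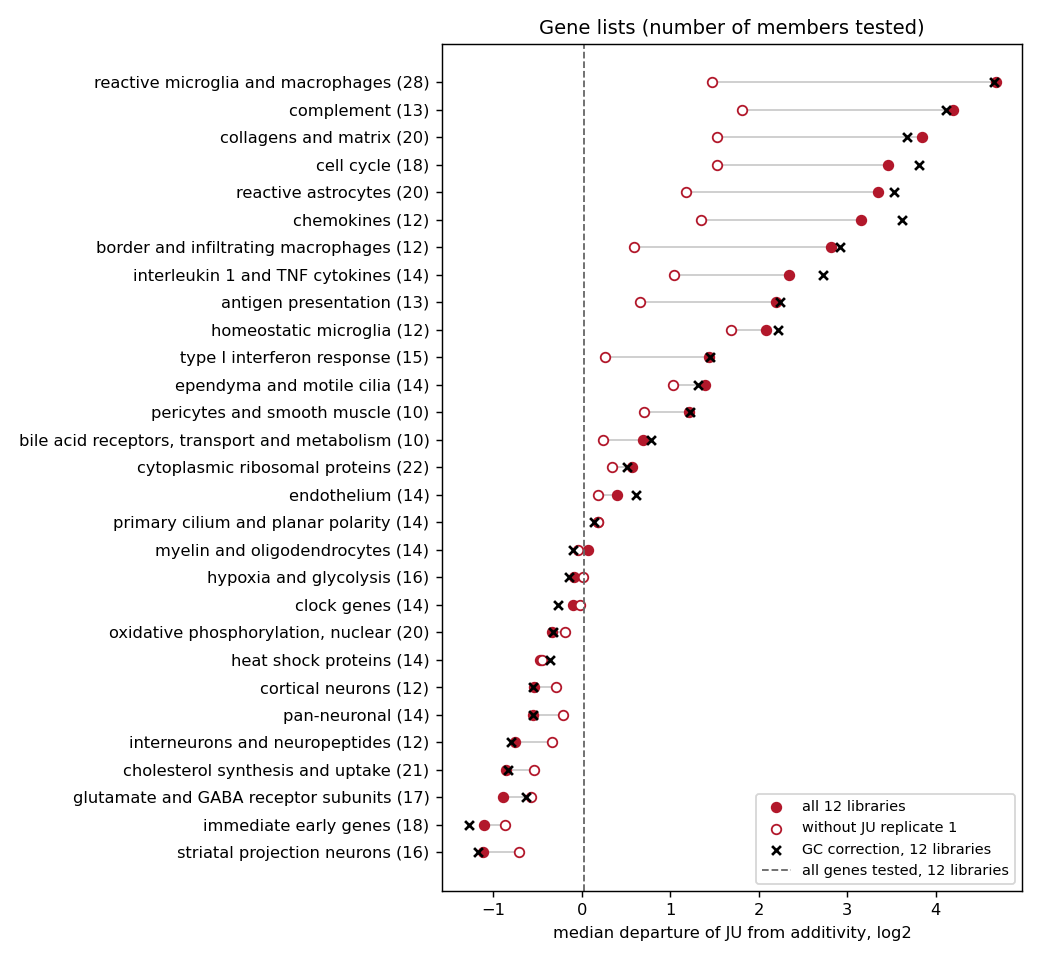
The median departure (log2) of 29 gene lists is plotted with all 12 libraries (filled), without JU replicate 1 (open) and after GC correction with 12 libraries (cross); the dashed line is the median of all genes, 0.02. Injury lists lie to the right, up to 4.68, and move toward 0 without JU replicate 1. The fit without JU and JA replicate 1 is not plotted. The neuronal lists plotted lie to the left, down to -1.12, and those of thalamic and hippocampal neurons are not plotted.

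The single contrasts within the same fit passed for few genes. JU against vehicle had 0 genes at an adjusted p under 0.05 (0%) in edgeR, with 216 at an unadjusted p under 0.05, and 0 in DESeq2 and limma voom. JA against vehicle had 0 (0%) with 2252 at an unadjusted p under 0.05, 704 in DESeq2 and 0 in limma voom. UA against vehicle had 93 (0.616%), 91 higher in UA (0.602%) and 2 lower (0.0132%), but 0 without any one of 11 of the 12 libraries in turn and 3092 without JU replicate 1. JU against the mean of JA and UA had 0 (0%) with 4087 at an unadjusted p under 0.05, 1618 in DESeq2 and 0 in limma voom. The departure is the last of these minus the difference of the mean of JA and UA from vehicle, which had 343 called (2.27%), 326 higher (2.16%) and 17 lower (0.113%). That count was 4258 without JU replicate 1, 14 without JA replicate 1 and 0 without any one of 9 others. These contrasts share libraries with each other and with the departure.

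Other settings moved the count and the split of departures. DESeq2 called 3839 genes, 2057 above and 1782 below additivity, against 195 and 899 in edgeR. A fit with the sham libraries added called 1634 above and 1585 below. Limma with library weights, in which JU replicate 1 had a weight of 0.0692 and JU replicate 3 of 4.27, called 2462 above and 2866 below. Without JU replicate 1 the split was 516 above (3.42%) and 1499 below (9.92%). All 1094 genes kept their direction without that library, as did 13294 of all 15109 genes tested, and 1091 were still called. The 1094 were chosen with the same remaining libraries, so this is a description of them only. On the linear scale, where the mean CPM replaces its logarithm, all 1094 kept their direction too, as did 15043 of all 15109 genes.

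**Figure D5:**
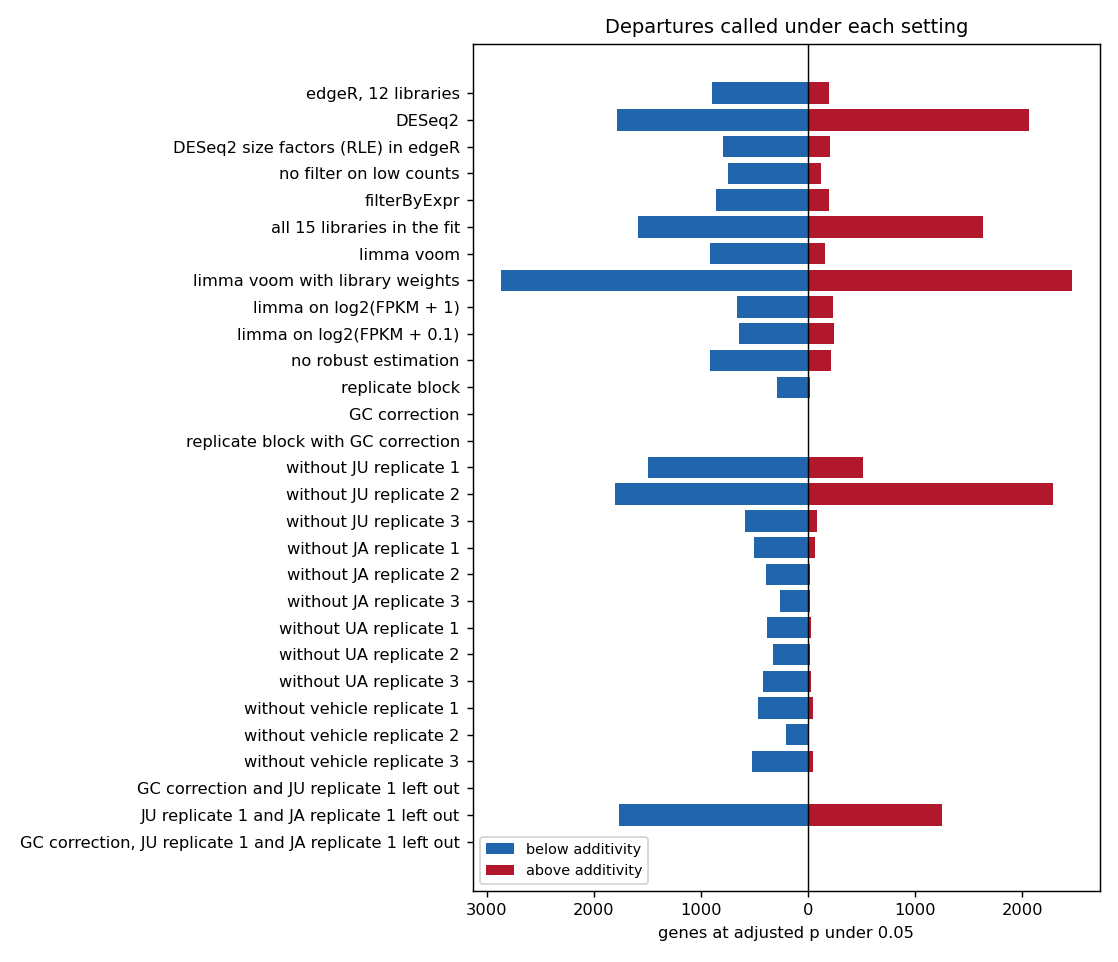
Bars give the number of genes called below (left, blue) and above (right, red) additivity at an adjusted p under 0.05 under each setting. The count is 0 in every fit with GC correction, and it ranges from 221 without vehicle replicate 2 to 4083 without JU replicate 2 when 1 library is left out.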

How the data were processed

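Brain messenger RNA was sequenced in 12 libraries of occluded mice, 3 each of JU, JA, UA and vehicle, grouped by the sample labels. The kit was TruSeq Stranded mRNA, per the labels' protocols. The deposited table gives whole-number read counts per gene, not normalized, per the file headers. Beside them stand the authors' FPKM values (fragments per length and depth), per the column names. Trimmomatic, HISAT2, Cufflinks, DESeq and the build GRCm38 (mm10) are listed in the submitters' processing notes. For the counting tool, strand setting and annotation, nothing is given in the sources used here, so values of overlapping genes and near-identical copies are uncertain. 1 count column matched no sample and was not used.

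Totals ran from 18346180 to 20447465 counts. The floor of detection of 3 counts, 0.147 to 0.1635 CPM, covers counting error only. All replicate pairs differed by more than sampling noise. Departures were tested in 1 fit with a term per group by edgeR 4.0.16 in R 4.3.3 (quasi-likelihood, TMM, robust estimation, 8 residual degrees of freedom), with Benjamini-Hochberg adjustment over all genes tested. The biological coefficient of variation was 29.8%. Each SE is the size of the log2 value divided by the square root of the test's F statistic, so it is approximate at low counts. Levels are CPM scaled by TMM factors. Alternatives used DESeq2 1.42.0 and limma 3.58.1, the latter also on log2(FPKM + 1). GC content was that of the longest GENCODE M21 transcript (GRCm38; 97.84% of genes matched). Its trend was fitted per library by lowess (span 0.3) and used as an offset. The procedure was tested on simulated data, which held no outlying library and no effect of JA or UA.

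Named genes, with a mean of at least 1 CPM and no predicted symbol, are the 10 largest called departures in each direction, the 5 per direction with the smallest maximum p when 1 library was left out, and up to 3 members with the smallest p of each list described. Some genes the rule takes are not reported here. Hspa4, Fmr1nb and genes under other observations were chosen after their values were seen. The contrast, its members, the lists and the alternatives were chosen with earlier results of these data known.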

Additional observations from a re-analysis of the deposited data

How the results depend on the processing

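Of the settings tried, GC correction ended every call of a departure: 0 genes passed with it alone, with the replicate block, with JU replicate 1 left out, and with JU and JA replicate 1 left out. The fits that joined GC correction to left-out libraries, GC correction of the single contrasts, and JU and JA replicate 1 left out together were added after seeing the data. The number of departures called was 1094 with the settings used and 3839 in DESeq2, 3219 with all 15 libraries, 5328 in limma voom with library weights, 3016 without JU and JA replicate 1, and 221 to 4083 when 1 library was left out. It was within 1.5 times 1094 in the other settings: 995 with the size factors of DESeq2, 864 with no filter, 1057 with filterByExpr, 1078 in limma voom, 901 and 887 on log2(FPKM + 1) and log2(FPKM + 0.1), and 1124 without robust estimation.

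Replicate numbers were not taken as pairing the samples, since the labels tie them to nothing and not every same-numbered pair of libraries had correlated deviations. Correlations ran from -0.727 to 0.702, and for JU with JA they were 0.702, 0.393 and 0.429. JU replicate 1 correlated more with vehicle replicate 2, at 0.775. The replicate block left 305 calls of departures, 13 above and 292 below additivity, and 29 of the 48 named genes called were not called with it.

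JU against vehicle had 0 calls and 1 without JU replicate 1, also with GC correction or without JA replicate 1 as well, and in all 3 together. JA against vehicle had 0 calls and 704 in DESeq2, 145 with 15 libraries, 0 to 1622 with 1 library left out, 1 with GC correction without JU replicate 1, 3321 without JU and JA replicate 1, and 1246 with both of these changes. UA against vehicle had 93 calls and 1099 in DESeq2, 465 with 15 libraries, 0 with no filter, the replicate block or GC correction, 0 to 3092 with 1 library left out, 1 with GC correction without JU replicate 1, 3806 without JU and JA replicate 1, and 1309 with GC correction as well. JU against the mean of JA and UA had 0 calls, 1618 in DESeq2, 399 with 15 libraries and 0 to 2064 with 1 library left out. The mean of JA and UA against vehicle had 343 calls and 1532 in DESeq2, 763 with 15 libraries, 113 with no filter, 0 with the replicate block or GC correction, 0 to 4258 with 1 library left out, 1145 with GC correction without JU replicate 1, 5232 without JU and JA replicate 1, and 3553 with GC correction as well. Genes with JU apart from the other 9 libraries numbered 95, and 296 to 835 with a JU library left out, as fewer libraries must then stand apart.

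Among named genes, Ift88 alone changed direction, with -0.48 in the fit reported and 0.0114 with GC correction, 0.019 with the replicate block and GC correction, and 0.0116 with GC correction without JU replicate 1. The cause of the other differences between settings was not tested. With 3 libraries per group and a coefficient of variation of 29.8%, departures at low counts cannot be read closely.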

Other observations

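In some genes the JU libraries stood apart from all 9 others, which the departure does not ask for. All 3 JU libraries were above every JA, UA and vehicle library for 58 genes (0.384%) and below every one for 37 (0.245%). Some genes would fall in this order with no effect of JU. These counts were not tested against that number, so nothing is read from them. The genes named here were chosen after their values were seen. Zfp366, a zinc finger gene, had 4.88, 5.22 and 5.03 CPM in JU, against 3.02, 2.84 and 2.72 in JA, 2.57, 2.77 and 3.04 in UA, and 3.12, 2.48 and 3.17 in vehicle. JU exceeded the mean of JA and UA by 0.83 ± 0.15 (log2, SE), which did not pass (edgeR adjusted p = 0.08). Tfam, which packages mitochondrial DNA and starts its transcription, had 25.9, 28.7 and 28.5 CPM in JU, 37.8, 34.0 and 38.7 in JA, 37.3, 40.3 and 34.4 in UA, and 31.1, 30.6 and 29.7 in vehicle, and was called below additivity at -0.70 (edgeR adjusted p = 0.0144). Cfap52, a protein of motile cilia, had 5.59, 3.57 and 3.64 CPM in JU, 1.66, 1.91 and 1.44 in JA, 2.40, 2.68 and 2.73 in UA, and 3.38, 3.46 and 2.98 in vehicle, and was called above additivity at 1.68 (edgeR adjusted p = 0.0198). In all 16 of these 95 genes were called, and 835, 525 and 296 genes stood apart when JU replicates 1, 2 and 3 were left out.

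Hemoglobin transcripts were also highest in JU. Hbb-bs, a beta globin gene, had 219, 314 and 294 CPM in JU, 2.87, 41.8 and 27.7 in JA, 82.2, 78.1 and 164 in UA, and 7.47, 1.95 and 86.7 in vehicle. Its departure of 1.76 was not called (edgeR adjusted p = 0.448). Hba-a1, an alpha globin gene, and Hbb-bt had the same order of groups. Globin genes have near-identical copies, so their counts are uncertain, and the amount of blood left in the samples was not measured.

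Zinc finger genes, a family seen among the named genes, held 63 calls below additivity and 3 above among 367 genes whose symbol is Zfp and a number, which is 17.2% below against 5.95% of all genes. Their median transcript GC content was 44.4%, against 49.9% over all genes. Their median departure was -0.35, and -0.08 after GC correction.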
